A study of Homo sapiens with 22 samples.

Results

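H3K4me3, the trimethylation of lysine 4 on histone H3, was mapped by chromatin immunoprecipitation and sequencing in cells that carried either of 2 splice forms of the transcription factor WT1. All 5 peak lists of this mark were taken, of 22 samples in the series, 13 of which had a peak list. The cells were K562, an established human line from a chronic myeloid leukaemia in blast crisis. Every group used here was a stable transfectant with pEF1aBirAv5-neo, which encodes the bacterial biotin ligase BirA. The 3 libraries of WT1 −KTS cells also carried pEF1a-Flagbiotin-(WT1+17AA/-KTS)-puro, and the 2 libraries of WT1 +KTS cells carried pEF1a-Flagbiotin-(WT1+17AA/+KTS)-puro. All were grown in RPMI medium with serum and G418. Both constructs thus held the insert of 17 amino acids and a FLAG and biotin tag, and were named for the EF1a promoter. Cells without tagged WT1 had no H3K4me3 list among the files used here, so the groups can be set against each other but not against cells without the protein. The labels do not say whether a line was a single clone or whether replicates were separate cultures, so p-values measure the spread between these samples only, which may be technical.

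H3K4me3 is placed by the SET1 and MLL family of methyltransferases and marks nucleosomes at the promoters of active and poised genes. It is strongest on the nucleosomes that flank a start site, while the start site itself is often free of nucleosomes. A promoter can therefore appear as a single broad peak or as several neighbouring ones. WT1 binds DNA through zinc fingers. Alternative splicing adds or omits a lysine, a threonine and a serine (KTS) between its last pair of fingers, which alters DNA binding. The comparison addresses whether the same places carry the mark with each splice form, and whether the marked places have the same width and spacing.

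Each list gave the position of every peak and a score, used here to rank peaks inside that list alone. On chromosomes 1 to 22 and X the WT1 −KTS lists held 33432, 47074 and 38594 peaks in replicates 1, 2 and 3, and the WT1 +KTS lists held 27296 and 52985 in replicates 1 and 2 (log10 difference −0.0144, two-sided exact permutation p = 1, and −0.0495 without −KTS replicate 1). For lists of equal length, each was cut to its 27296 best-scoring peaks. This kept 81.6%, 58.0% and 70.7% of the −KTS lists and 100% and 51.5% of the +KTS lists, and left lowest scores of 81, 239 and 201 against 13 and 94. The limits of the lists differed by group. The lowest score was 50 in every −KTS list and 13 in both +KTS lists. The smallest gap between neighbouring peaks was 51 bp in every −KTS list and 77 bp in both +KTS lists. The narrowest peak measured 93, 138 and 125 bp in −KTS and 193 and 224 bp in +KTS. Peak calling and splice form therefore cannot be told apart by group, and these values bear on every comparison of width and spacing. One library stood apart from the rest. WT1 −KTS replicate 1 had a best score of 905, where the other libraries reached 2162 to 3421, and tests on lists as deposited are given with and without it. Values with equal lists include it throughout. Read depth is unknown from the lists.

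Nearly all of the strongest H3K4me3 peaks of every library lay at places marked in cells of the other splice form. Among the 1000 best-scoring peaks of −KTS replicates 1, 2 and 3, 98.0%, 99.3% and 100% overlapped a peak of at least 1 +KTS library by 1 bp or more. Among the 1000 best of +KTS replicates 1 and 2, 100% and 99.9% overlapped a peak of at least 1 −KTS library. Shares found in all 4 other libraries were lower, at 84.2%, 91.2% and 94.6% for the −KTS lists against 94.5% and 95.8%. For −KTS replicate 3 and both +KTS replicates, the list that most often had no such peak was −KTS replicate 1. It held 94.5% of the 1000 best places of +KTS replicate 1, and each of the other 3 lists held 100%. For −KTS replicate 2 it was +KTS replicate 2, with 93.1%, while −KTS replicate 1 held 100%.

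Agreement fell with rank, at different rates in different libraries. Each list was cut into 5 equal rank classes. In the best class, 74.6%, 85.4% and 84.5% of −KTS peaks lay in all 4 other libraries, against 88.6% and 80.9% for +KTS. In the worst class the −KTS values were 33.8%, 0.935% and 4.68% and those of +KTS 10.1% and 0.425%. The share found in no other library rose in turn. It was 35.8%, 48.0% and 14.9% in the worst class of the −KTS lists, against 26.8% and 87.6%. The extremes were thus 2 single libraries and not the 2 groups. The weak peaks of +KTS replicate 2, the longest list, were mostly its own, while −KTS replicate 1 kept the largest share of weak peaks at places marked in every library. The median width of peaks fell with rank as well, for example from 1306 bp in the best class to 251 bp in the worst of +KTS replicate 1.

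**Figure D1:**
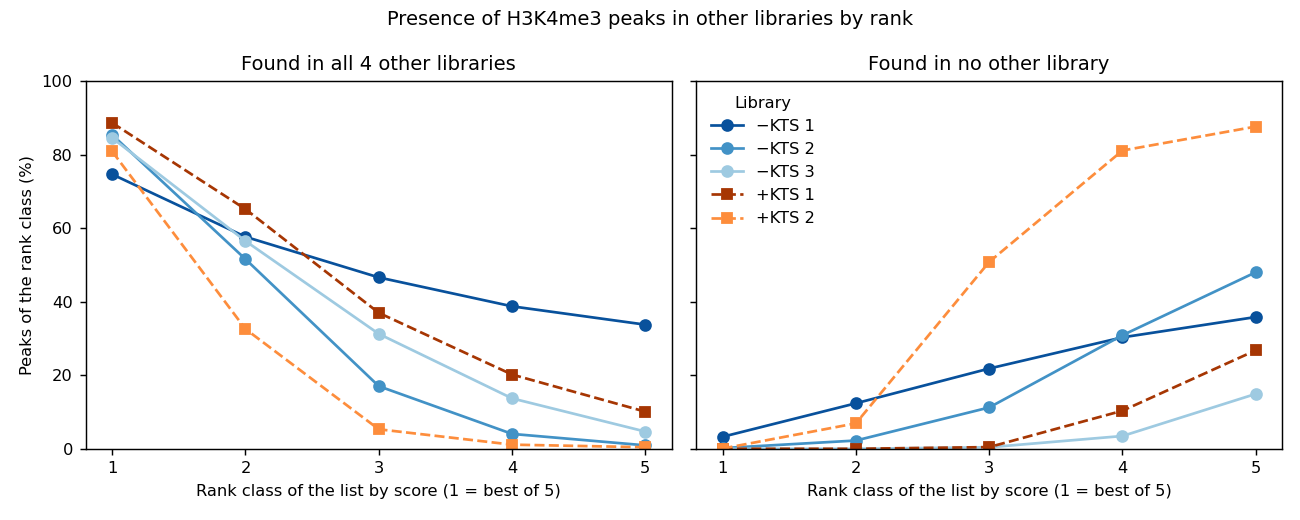
Share of the peaks of each of 5 equal rank classes of a list (vertical axis, percent; class 1 has the best scores) found in all 4 other H3K4me3 libraries (left) and in none (right), with 1 line per library. In the best class 74.6% to 88.6% of peaks were found in all other libraries, and +KTS replicate 2 rises to 87.6% found nowhere else in its worst class.

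Mean likeness was no higher between lists of the same splice form than between lists of different forms. Likeness was measured by the Jaccard index, the length covered in both lists divided by the length covered in either. Within −KTS it was 0.203 for replicates 1 and 2, 0.113 for 1 and 3, and 0.554 for 2 and 3. Within +KTS it was 0.507. The highest value of all 10 pairs joined the groups, at 0.589 for −KTS replicate 3 and +KTS replicate 1. The mean was 0.344 over the 4 pairs within a group and 0.389 over the 6 pairs between groups, a difference of −0.0451 (one-sided exact permutation p = 0.6, where 0.1 is the smallest that 10 splits allow). After the cut to equal lists the means were 0.374 and 0.412 (exact p = 0.6), and the most alike pair was then the +KTS replicates, at 0.604. Without −KTS replicate 1 the means were 0.530 and 0.509, a difference of 0.0209 in the other direction (exact p = 0.333). Without −KTS replicate 3 the difference also turned, to 0.0417 (exact p = 0.333). In both cases 0.333 is the smallest possible, since with groups of equal size a split and its mirror image give the same value.

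In each of the 6 pairs of equal lists, −KTS peaks were found in the +KTS list more often than the reverse. This was not tested. Of the 27296 best peaks of −KTS replicate 3, 88.9% lay in +KTS replicate 1 and 91.0% in +KTS replicate 2. For −KTS replicate 2 these were 83.5% and 79.8%, and for −KTS replicate 1 they were 67.5% and 63.1%. Of the best peaks of +KTS replicate 1, 46.4%, 65.4% and 67.3% lay in −KTS replicates 1, 2 and 3, and of those of +KTS replicate 2, 44.7%, 65.3% and 70.9%. Equal lists did not mean equal numbers of marked places, because −KTS peaks were more often several to a place, as described below. Once peaks at most 1 kb apart were joined, the equal lists came to 13370, 15323 and 16561 places in −KTS cells, against 20297 and 20902. The cut therefore reached fewer places in every −KTS library than in either +KTS library, and its part in the shares above was not tested.

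**Figure D2:**
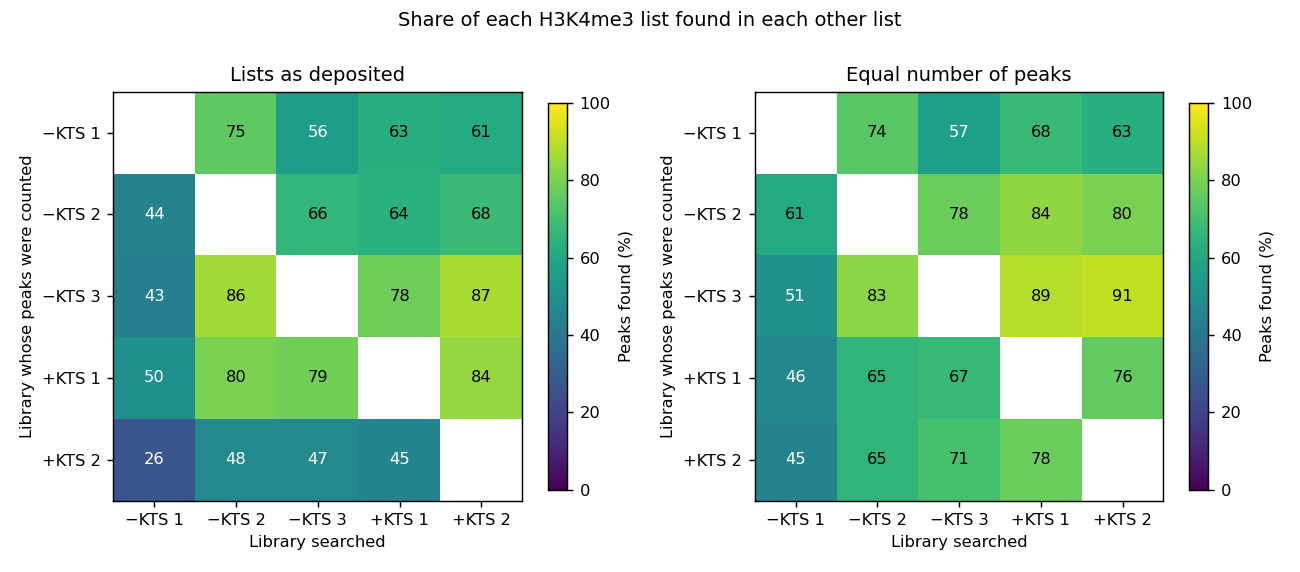
Share of the peaks of each library (row) that overlap a peak of each other library (column), in percent, for the lists as deposited (left) and cut to 27296 peaks (right). In both panels each row of another library is lowest in the column of −KTS replicate 1, and with equal lists the 6 shares of −KTS peaks found in +KTS lists range from 63.1% to 91.0% against 44.7% to 70.9% in the reverse direction.

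All peaks of the 5 libraries merged into 72007 regions, and the regions marked everywhere were the widest. There were 11686 regions with a peak in all 5 libraries (16.2%), with a median merged length of 1574 bp, and 81.9% of them exceeded 1 kb. The 6960 regions in 4 libraries had a median of 898 bp, the 3833 in 3 libraries 594 bp, the 6380 in 2 libraries 383 bp and the 43148 in 1 library 233 bp. A merged length takes in all peaks there, so it tends to grow with the number of libraries. Among regions in 4 libraries, 6243 of 6960 were those that −KTS replicate 1 alone did not have. With equal lists 10209 of 38715 regions (26.4%) were in all 5 libraries, and 4127 were missing from −KTS replicate 1 only.

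The libraries differed in where their private regions lay. Of the 6926 regions found only in −KTS replicate 1, 55.3% lay within 3 kb of a region marked in all 5 libraries, and their median length was 138 bp. This share was 30.0% for the 8714 regions only in −KTS replicate 2 and 9.16% for the 1452 only in −KTS replicate 3. It was 8.28% for the 2052 regions only in +KTS replicate 1 and 6.55% for the 24004 only in +KTS replicate 2. Private regions of −KTS replicate 1 were thus mostly narrow pieces beside shared ones. Those of −KTS replicate 3 and both +KTS libraries mostly lay away from them, at median distances of 117.7, 87.1 and 70.4 kb. The cut to equal lists gave 55.4%, 42.9% and 8.06% for −KTS, against 8.24% and 14.8%.

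Peaks were wider in both +KTS lists than in any −KTS list. The median width was 199, 358 and 332 bp in −KTS replicates 1, 2 and 3, against 647 and 370 bp in +KTS replicates 1 and 2. The groups did not overlap, but −KTS replicate 2 and +KTS replicate 2 lay close together. The difference of mean log2 medians was 0.77, or 1.70-fold (two-sided exact permutation p = 0.2, the smallest that 10 splits allow, and 0.3 after Benjamini-Hochberg adjustment over 6 values per list). After the cut to equal lists the medians were 232, 554 and 452 bp against 647 and 707 bp, a log2 difference of 0.80 (exact p = 0.2, also 0.2 after adjustment over 5 values). Without −KTS replicate 1 the log2 difference as deposited was 0.51, and without +KTS replicate 1 it was 0.37, while without +KTS replicate 2 it was 1.17. At a lowest score of 50 in every list, the +KTS medians were 730 and 463 bp and the log2 difference 1.02 (exact p = 0.2).

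The groups were also apart, as deposited, at the upper end of the width distribution. Peaks wider than 1 kb made up 1.88%, 10.8% and 7.78% of the −KTS lists and 31.1% and 14.1% of the +KTS lists. The means were 6.82% ± 4.54 (SD, n = 3) and 22.6% ± 12.1 (SD, n = 2), a difference of 15.8 percentage points (exact p = 0.2, adjusted 0.3). In numbers these were 627, 5081 and 3003 peaks in −KTS and 8499 and 7446 in +KTS, so +KTS replicate 1 had the most with the shortest list. Beyond 2 kb there were 25, 387 and 134 peaks in −KTS and 1209 and 968 in +KTS. Among the 27296 best peaks the shares over 1 kb were 2.29%, 18.3% and 10.9% against 31.1% and 27.1%, a difference of 18.6 points (exact p = 0.2). The difference as deposited was 13.3 points without −KTS replicate 1. Omitting +KTS replicate 1 gave 7.24 points, and omitting +KTS replicate 2 gave 24.3.

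Joining neighbouring peaks removed the separation in width. Once peaks at most 1 kb apart were counted as 1, the median width was 635, 859 and 793 bp in −KTS, against 1031 and 398 bp. The +KTS libraries then lay on either side of all −KTS libraries, and the log2 difference turned to −0.24 (exact p = 0.8). With lists cut to equal length first and then joined, the medians were 630, 1225 and 879 bp against 1031 and 923 bp, a log2 difference of 0.15 (exact p = 0.8). The shares wider than 1 kb were then 37.3%, 59.3% and 44.1% against 51.4% and 46.5%, and the groups overlapped. A milder treatment, chosen after the values were seen, joined peaks at most 100 bp apart and dropped those then under 250 bp, so that every list had the same smallest gap and width. It gave medians of 467, 574 and 552 bp against 806 and 487 bp (log2 difference 0.24, exact p = 0.6), and the groups overlapped. The shares wider than 1 kb were then 8.49%, 22.1% and 17.9% against 38.6% and 19.0%, and the groups overlapped here too (exact p = 0.4).

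**Figure D3:**
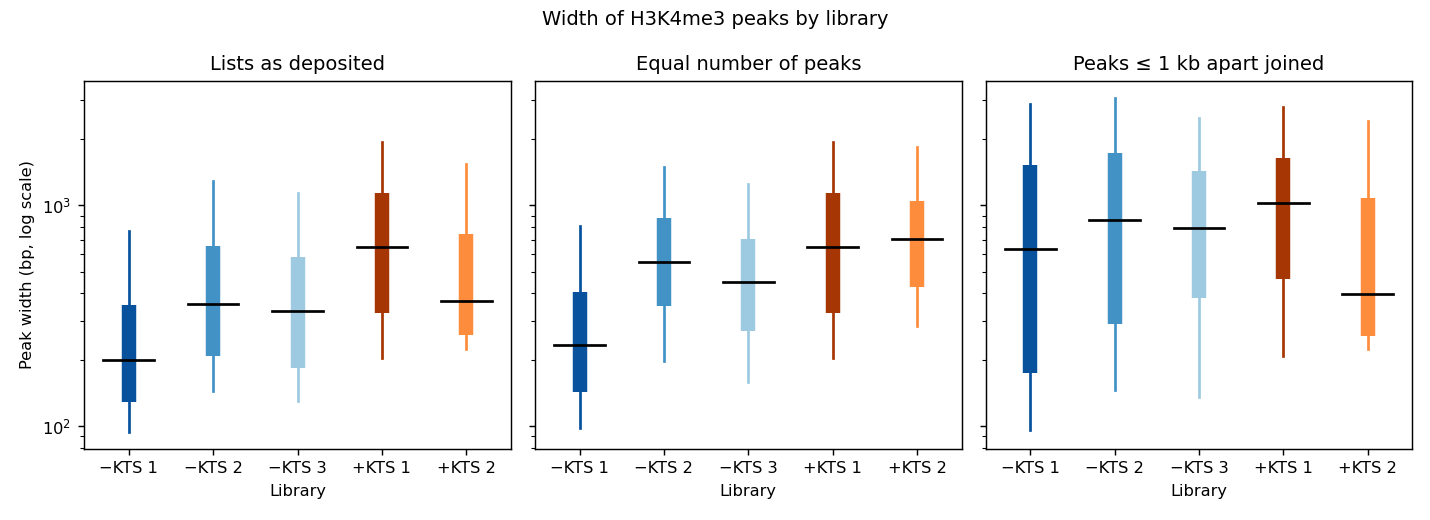
Width of peaks in bp on a log axis for each of the 5 libraries, as deposited, cut to 27296 peaks, and with peaks at most 1 kb apart joined. The black line is the median, the thick bar runs from the 25th to the 75th percentile and the thin line from the 5th to the 95th. The +KTS medians (647 and 370 bp) exceed the −KTS medians as deposited, and with peaks joined they lie on either side of them (1031 and 398 bp).

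Total covered length followed the width in part. Peaks of the −KTS lists took up 9.54, 23.3 and 17.1 Mb, those of the +KTS lists 22.1 and 30.2 Mb, and −KTS replicate 2 exceeded +KTS replicate 1 (log10 difference 0.218, exact p = 0.4, adjusted 0.48). The log10 difference without −KTS replicate 1 was 0.111 (exact p = 0.667). The equal lists took up 8.62, 18.3 and 14.8 Mb against 22.1 and 22.4 Mb. Both +KTS lists then covered more than every −KTS list (exact p = 0.2, the smallest possible).

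H3K4me3 peaks stood closer together in every −KTS list than in either +KTS list. The share of peaks with another peak within 3 kb was 85.9%, 77.0% and 76.7% in −KTS, against 49.7% and 42.7%. The means were 79.8% ± 5.21 (SD, n = 3) and 46.2% ± 4.97 (SD, n = 2), a difference of −33.6 percentage points, larger than either SD (exact p = 0.2, the smallest possible, adjusted 0.3). In the equal lists 84.0%, 75.2% and 69.1% had one, against 49.7% and 47.5%, a difference of −27.5 points (exact p = 0.2). Leaving out any 1 library kept the difference as deposited between −37.1 and −30.1 points, and it was −30.6 without −KTS replicate 1. At a lowest score of 50 in every list the +KTS shares were 45.9% and 44.7%. The groups also did not overlap when a neighbour was sought within 1 kb, a difference of −35.4 points.

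Clusters of peaks held more members in −KTS lists, by a margin that depended on the smallest gap and width. When peaks at most 3 kb apart were joined into clusters, a cluster held on average 2.55, 2.02 and 1.92 peaks in −KTS, against 1.40 and 1.34 (means 2.17 ± 0.338, SD, n = 3, and 1.37 ± 0.0454, SD, n = 2; exact p = 0.2, adjusted 0.3). Equal lists gave 2.36, 1.86 and 1.71 against 1.40 and 1.37. Single-peak clusters made up 36.1%, 46.6% and 44.9% of clusters in −KTS, against 70.5% and 76.6%. The largest cluster held 113, 57 and 57 peaks, against 36 and 48. With the same smallest gap and width in every list, the shares with a neighbour within 3 kb were 64.9%, 64.2% and 52.9% against 41.8% and 42.3%. The difference of −18.6 points was smaller than the −33.6 points as deposited, and the groups still did not overlap (exact p = 0.2). Peaks per cluster were then 1.61, 1.61 and 1.43 against 1.31 and 1.33, and the difference in means shrank from −0.796 to −0.231 (exact p = 0.2). The difference as deposited was −0.603 without −KTS replicate 1.

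**Figure D4:**
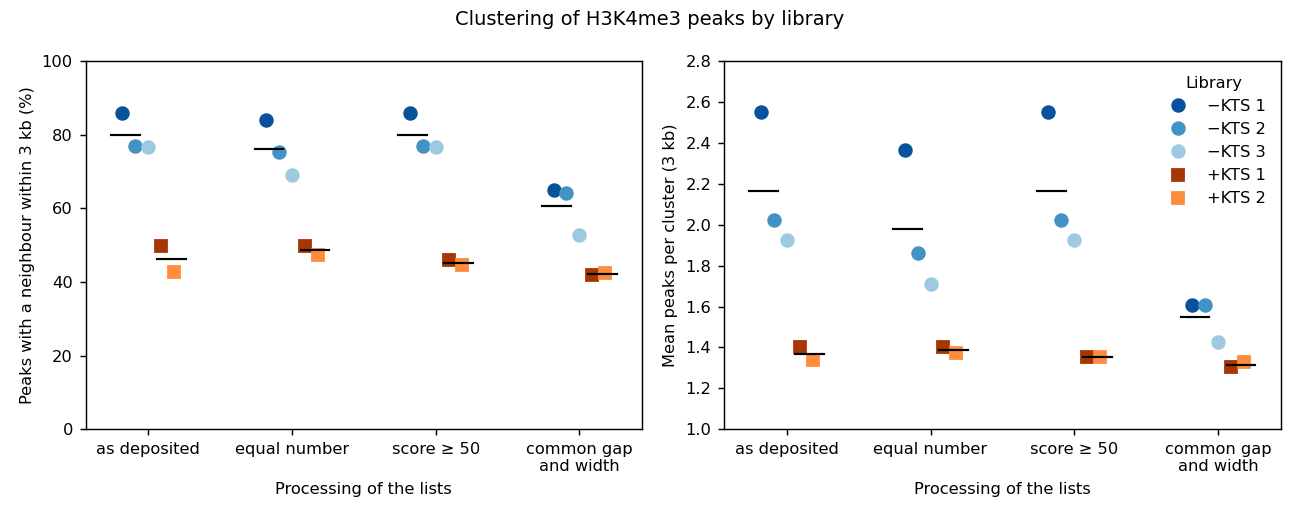
Share of peaks with a neighbour within 3 kb in percent (left) and mean number of peaks per cluster (right), for each library under 4 treatments of the lists. Circles are the 3 −KTS libraries, squares the 2 +KTS libraries and black lines the group means. The groups do not overlap under any of the 4, and the means of 79.8% and 46.2% as deposited become 60.7% and 42.1% with a common smallest gap and width.

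As deposited, the groups were apart already over short distances. The share of peaks with a neighbour within 200 bp was 44.1%, 46.2% and 49.1% in −KTS, against 22.96% and 14.3%. With the same smallest gap and width in every list the same shares were 14.8%, 29.0% and 23.9% against 16.9% and 13.0045%, and the groups overlapped. Between places further apart they overlapped as deposited. Once peaks within 1 kb of each other were joined, the median gap to the next marked place was 62.3, 51.9 and 61.8 kb in −KTS, against 55.6 and 31.4 kb. The share of joined places with another within 3 kb was 26.0%, 11.4% and 8.63%, against 7.63% and 12.1%. In equal lists the groups did not overlap in the other direction, with median gaps of 67.8, 68.8 and 71.2 kb between joined places against 55.6 and 53.6 kb, and the longer gaps of −KTS went with fewer places.

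The same marked regions were divided into more peaks in −KTS lists, as deposited and cut to equal length. At the 11686 regions found in all 5 libraries, a region held on average 1.95, 1.86 and 1.85 peaks in −KTS replicates 1, 2 and 3, against 1.22 and 1.28 in +KTS replicates 1 and 2. A single peak stood at 43.5%, 41.8% and 44.9% of these regions in −KTS and at 80.6% and 76.0% in +KTS. Regions with 3 peaks or more made up 24.98%, 20.6% and 20.8% against 2.54% and 3.27%. In equal lists 46.9%, 49.9% and 52.4% of 10209 regions had a single peak in −KTS, against 79.7% and 78.6%. No library of one group reached the values of the other in any of these. With peaks at most 1 kb apart joined, a single peak stood at 86.2%, 98.1% and 96.3% of 10633 regions in −KTS. In +KTS it was 98.3% and 96.8%, and the groups overlapped. At the 11686 regions the covered length was less divided by group, with medians of 517, 1160 and 854 bp in −KTS, against 1158 and 1068 bp. The span from the first to the last peak had medians of 742, 1291 and 995 bp against 1197 and 1126 bp. For both, −KTS replicate 2 was the longest of the 5 libraries. As deposited, the number of peaks per region thus separated the groups and the length did not.

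Peaks outside the shared regions followed the same order. The share with a neighbour within 3 kb was 88.8%, 92.3% and 87.0% inside the 11686 regions in −KTS, against 58.6% and 69.0%. Outside them it was 79.5%, 63.8% and 63.5% against 39.9% and 32.4%. Median widths inside were 239, 574 and 414 bp against 937 and 814 bp, and outside they were 149, 254 and 237 bp against 399 and 303 bp.

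Within shared regions, −KTS replicate 1 placed its peaks on the flanks where the other libraries had them at the centre. For each library the centre of a region was set by the midpoints of the other 4 libraries, so that it did not depend on the library itself. A peak covered the centre at 27.4% of regions in −KTS replicate 1, 89.0% in −KTS replicate 2 and 80.6% in −KTS replicate 3, and at 94.3% and 91.0% in +KTS replicates 1 and 2. In −KTS replicate 1 coverage was higher 500 bp to either side, at 33.5% and 33.9%, than at the centre. In the other 4 libraries it fell on both sides, for example from 94.3% to 60.7% and 61.4% in +KTS replicate 1. Peaks on both sides of a bare centre were found at 31.6%, 10.3% and 13.6% of regions in −KTS and at 3.09% and 5.34% in +KTS. Here too both +KTS libraries lay below every −KTS library. In equal lists it was 30.0%, 9.03% and 12.2% against 2.95% and 4.71%. As deposited, a bare centre with peaks on 1 side only was found at 41.1%, 0.667% and 5.80% of regions in −KTS. In +KTS this share was 2.58% and 3.62%, and the groups overlapped.

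**Figure D5:**
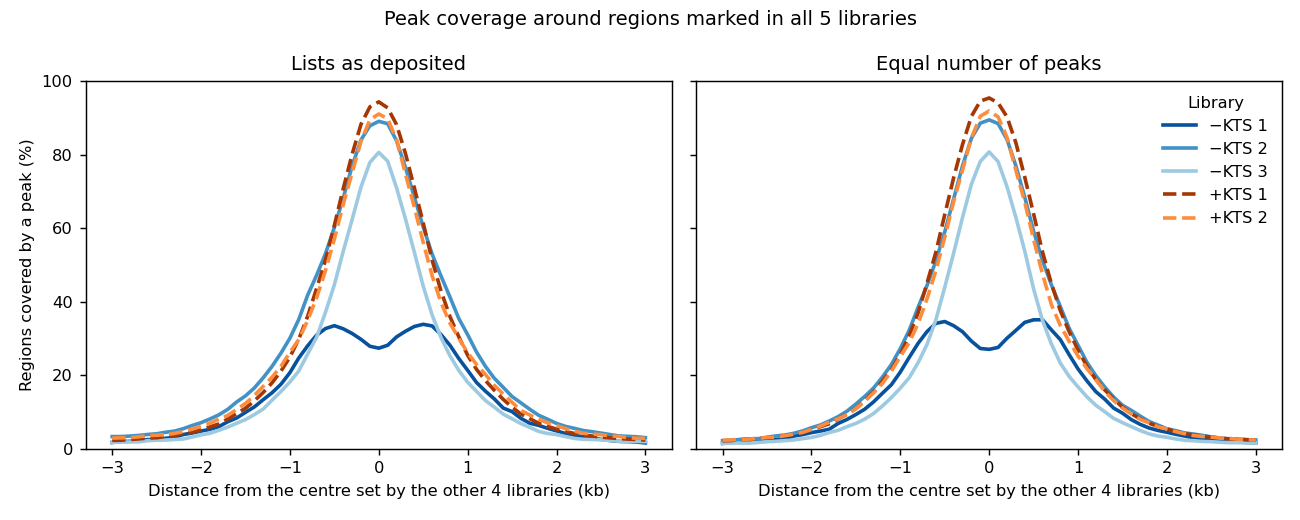
Percent of regions marked in all 5 libraries that are covered by a peak (vertical axis) at each distance in kb from the centre set by the other 4 libraries, for lists as deposited (11686 regions) and of equal length (10209 regions), with 1 line per library. Coverage of −KTS replicate 1 dips to 27.4% at the centre, while the other libraries reach 80.6% to 94.3% there.

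The lengths of shared regions correlated about as closely between splice forms as within them, except in −KTS replicate 1. Across the 11686 regions, Pearson's r of log2 covered length was 0.825 between −KTS replicates 2 and 3 and 0.791 between the +KTS replicates. Between groups it ranged from 0.800 to 0.892 for −KTS replicates 2 and 3, with the highest value for −KTS replicate 3 and +KTS replicate 2. For −KTS replicate 1 it was 0.231 to 0.465 with any other library. Regions are not independent replicates and share each library's calling, so these values are descriptions.

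With replicate numbers not used as pairs, no shared region passed the test for a difference in length between splice forms. Covered length was tested with limma on the log2 scale after each library's median was subtracted, at a Benjamini-Hochberg adjusted p under 0.05. Of 11686 regions, 0 were called longer (0%) and 0 shorter (0%) in +KTS cells, the smallest adjusted p was 0.998, and 47 and 36 had an unadjusted p under 0.05. No other tool was run. Without the centring, which removes a median log2 difference of 0.47, 10583 of 11686 regions were longer in +KTS on average, and again 0 were called. Without −KTS replicate 1, 0 of 18285 regions of the other 4 libraries were called, and 479 and 314 had an unadjusted p under 0.05. In both cases such regions made up less than 0.05 of those tested, the share expected with no difference. Data were also simulated with the same pooled SD of 0.629 in every region and library. There, 0% of 200 regions changed by 1 on the log2 scale were recovered and 52.5% of 200 changed by 2. Changes of 1 were thus not detectable at that SD. Real regions and libraries need not share 1 SD, so recovery in them may differ. The regions with the smallest p are given as values. On chromosome 4, 2 neighbouring regions had less covered length in both +KTS libraries. That at chr4:134070515-134075367 on hg19 had 2717, 3615 and 2357 bp covered in −KTS and 842 and 955 bp in +KTS (log2 difference after centring −2.14, SE 0.36; limma adjusted p = 0.998). That at chr4:134068065-134070492 had 1208, 1767 and 1103 bp against 664 and 250 bp. On chromosome 7, chr7:155597362-155598783 had 149, 332 and 171 bp in −KTS and 1225 and 1422 bp in +KTS (log2 difference 2.22, SE 0.39; limma adjusted p = 0.998). On chromosome 5, chr5:776600-778711 had 280, 443 and 328 bp against 1556 and 2007 bp. In these 4 regions the groups did not overlap. The other 6 regions named by this rule lay at chr18:22928922-22932219, chr17:46805465-46806983 and chr10:102819887-102823170, with positive differences, and at chr3:44480488-44481433, chr1:157246560-157249428 and chr4:81186515-81188195, with negative ones. Their log2 differences ranged from −1.98 to 1.73.

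The shared regions with the largest mean covered length lay on chromosome 1. At chr1:228770286-228784157 the covered length was 1103, 8003 and 11701 bp in −KTS and 6417 and 12255 bp in +KTS, from 5, 10, 8, 13 and 8 peaks. At chr1:228744018-228754515 it was 1192, 5925 and 8922 bp against 4848 and 9239 bp. In both, −KTS replicate 3 and +KTS replicate 2 were the longest and −KTS replicate 1 the shortest. The long arm of chromosome 1 carries the tandem genes of 5S ribosomal RNA as background, and whether these regions lie among them was not checked, since no annotation of hg19 was used. The next lay at chr7:5631146-5639063, with 931, 6846 and 6311 bp against 4981 and 6922 bp, at chr3:128203446-128210544, with 799, 6851 and 5699 bp against 6192 and 6405 bp, and at chr16:85586576-85593358, with 2811, 5901 and 3618 bp against 5273 and 5439 bp. At each of these −KTS replicate 1 was again the shortest, and the other −KTS libraries overlapped the +KTS range or lay on both sides of it.

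No stretch of a chromosome passed the test for a difference in density. The genome was divided into windows of 1 Mb, and the share of each list's covered length was tested in the 2119 windows with 5 peaks or more on average. With limma, 0 windows were called denser (0%) and 0 less dense (0%) in +KTS cells, the smallest adjusted p was 0.911, and 22 and 14 had an unadjusted p under 0.05. There were again 0 and 0 without −KTS replicate 1, where 72 and 50 had an unadjusted p under 0.05. With all libraries such windows made up less than 0.05 of those tested, the share expected with no difference. Without −KTS replicate 1 they lay near that share. In data simulated with the same pooled SD of 0.505 in every window, 4% of 200 windows changed by 1 on the log2 scale were recovered. Of 200 changed by 2, 93% were. Real windows and libraries need not share 1 SD, so recovery in them may differ. Among real windows, log2 differences of −2.36 and 3.20 were not called. Windows were ranked by mean share of covered length over the 5 libraries. The densest were those from 26 to 27 Mb and from 27 to 28 Mb of chromosome 6. The short arm of that chromosome carries the main cluster of histone genes. The first held 191, 167 and 117 peaks in −KTS and 110 and 108 in +KTS, which covered 73.9, 79.0 and 38.4 kb against 76.4 and 59.97 kb. The second held 193, 165 and 121 peaks against 95 and 120. Every −KTS library had more peaks there than both +KTS libraries, in the second window by as little as 121 against 120, while the covered lengths of the groups overlapped. The rank of these windows leaned on −KTS replicate 1, which had 0.774% and 0.776% of its covered length there. The other libraries had 0.199% to 0.346%. In −KTS replicate 3 and both +KTS libraries, the window from 1 to 2 Mb of chromosome 19 was denser than either, at 0.424%, 0.410% and 0.331%.

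A few windows stood apart by group without passing the adjustment. From 134 to 135 Mb of chromosome 4, which holds the 2 neighbouring regions above, there were 23, 21 and 8 peaks in −KTS and 4 and 7 in +KTS, covering 6.66, 10.7 and 4.26 kb against 1.51 and 2.04 kb (log2 difference of shares −2.36, SE 0.42; limma adjusted p = 0.911). From 155 to 156 Mb of chromosome 7 there were 10, 14 and 10 peaks against 21 and 39 (log2 difference 0.92, SE 0.18; limma adjusted p = 0.911). From 17 to 18 Mb of chromosome 5 there were 1, 2 and 1 peaks against 14 and 38 (log2 difference 3.20, SE 0.77; limma adjusted p = 0.911). From 23 to 24 Mb of chromosome 22 there were 7, 15 and 17 peaks against 39 and 110 (log2 difference 1.49, SE 0.35; limma adjusted p = 0.911). In each of these 4 windows no −KTS library reached the +KTS range. The last became the only window called when shares of peaks replaced shares of covered length (log2 difference 2.40, SE 0.31; limma adjusted p = 0.0445). Windows from 115 to 116 Mb of chromosome 12 and from 11 to 12 Mb of chromosome 10 had log2 differences of −1.18 and −0.69.

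Shares of peaks per chromosome did not pass the test either. Of 23 chromosomes, 0 were called higher (0%) and 0 lower (0%) in +KTS cells with limma, and 2 and 1 had an unadjusted p under 0.05. Chromosome 22 differed most. It held 612, 1036 and 899 peaks in −KTS (1.83% to 2.33% of each list) and 703 and 1404 in +KTS (2.58% and 2.65%) (log2 difference 0.31, SE 0.11; limma adjusted p = 0.192). K562 carries the BCR-ABL1 fusion, and BCR lies on the long arm of chromosome 22. The stretch from 17 to 24 Mb was set apart after the values were seen. Part of it is the window from 23 to 24 Mb, picked above for its small p. The stretch without that window was not examined. The whole stretch held 0.709%, 0.612% and 0.609% of each −KTS list and 0.839% and 1.15% of each +KTS list. The rest of chromosome 22 held 1.12%, 1.59% and 1.72% against 1.74% and 1.5%. As deposited, the groups were apart in the stretch and overlapped outside it. In equal lists the stretch held 0.758%, 0.670% and 0.659% against 0.839% and 1.17%, and the rest held 1.09%, 1.61% and 1.69% against 1.74% and 1.72%. The groups were then apart in both. Outside the stretch, −KTS replicates 2 and 3 lay just below the +KTS libraries, and −KTS replicate 1 was the lowest. The contrast between the stretch and the rest was not tested. Chromosome X held 1.91% of peaks in −KTS replicate 1 and 3.34% to 3.69% in the other 4 libraries. Without −KTS replicate 1, 0 chromosomes were called, and 2 and 1 had an unadjusted p under 0.05. Without −KTS replicate 3, chromosomes 22 and X were both called higher in +KTS (limma adjusted p = 0.0394 each), where the −KTS shares of X were the 1.91% of replicate 1 and the 3.34% of replicate 2.

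Few regions were marked in every library of one splice form and none of the other. As deposited, 221 of 72007 regions (0.307%) had a peak in each of the 3 −KTS libraries but in neither +KTS library. The reverse held for 1485 (2.06%), in both +KTS libraries but in none of −KTS. The first rule asks for 3 libraries and the second for 2, so the counts are not alike in stringency. The +KTS lists also reached lower scores. At a lowest score of 50 in every list the counts were 279 for −KTS and 1006 for +KTS. Leaving out a library moved them widely: the −KTS count became 1120 when −KTS replicate 1 was left out and 1637 when −KTS replicate 3 was. Omitting +KTS replicate 1 gave 453, and omitting +KTS replicate 2 gave 710. The +KTS count became 25623 when +KTS replicate 1 was left out and 3797 when +KTS replicate 2 was. Equal lists gave 118 and 2004 of 38715 regions. Many of these were present in the other cells below the limit of 27296 peaks. In the full lists 45 of the 118 −KTS regions (38.1%) overlapped a +KTS peak, and 1241 of the 2004 +KTS regions (61.9%) overlapped a −KTS peak. This left 73 and 763 regions with the same presence under both treatments. Other sets of libraries shared regions of their own as well. As deposited, the other sets of 3 libraries held 4 to 1740 regions found in no further library, against the 221. The other sets of 2 libraries held 13 to 1400, against the 1485. Whether these presences go with the splice form was not tested.

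These regions were narrower than those marked everywhere, and those of −KTS cells often lay beside shared ones. The median length was 461 bp for −KTS regions and 442 bp for +KTS regions, against 1574 bp for regions in all 5 libraries. Merged length tends to grow with the number of libraries. The medians were 594 bp for all regions in 3 libraries and 383 bp for all regions in 2. Of the 221 −KTS regions, 138 (62.4%) had a +KTS peak within 1 kb, and 52.5% lay within 3 kb of a region marked in all 5 libraries. Of the 1485 +KTS regions, 354 (23.8%) had a −KTS peak within 1 kb, and 12.3% lay within 3 kb of such a region. Among all regions in 3 libraries, 22.1% lay within 3 kb of one, and among all regions in 2 libraries 28.9% did. Peaks of the other cells thus stood close to most −KTS regions and to a minority of +KTS regions.

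The regions of each set with the largest covered length in the library where it was smallest had no peak of the other cells within 3 kb. At chr12:121810358-121812530 the covered length was 1193, 1852 and 1475 bp in −KTS, and the nearest peaks of the +KTS libraries were 20.1 and 18.8 kb away. At chr18:60865499-60867297 it was 775, 1796 and 738 bp, with +KTS peaks 42.4 and 7.01 kb away. At chr2:194141267-194142511 it was 528, 971 and 572 bp, with +KTS peaks 58.1 kb away in both libraries. On the +KTS side, chr20:25037382-25039577 had 2025 and 2181 bp covered, and the nearest −KTS peaks were 63.4, 63.5 and 63.6 kb away. At chr9:137761239-137764130 there were 2757 and 1951 bp, with −KTS peaks at 541.8, 227.9 and 118.0 kb. At chr16:22545279-22547774 there were 1663 and 2496 bp, with −KTS peaks at 94.6, 95.3 and 96.2 kb. These 6 regions were picked for their presence, so no test of it is given, and no list of artefact-prone regions was used to screen them.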

How the data were processed

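Only the 5 H3K4me3 peak lists were used, 1 per library, in BED format on hg19. The submitters' processing notes name MACS2 2.1.1.20160226 and Bowtie2 2.2.7. The control, filters and threshold of peak calling are not stated there, and names of the −KTS lists contain the word pooled, without saying what was pooled. The score the authors deposited in column 5 is a whole number whose meaning no label gives. Peak width, covered length and gaps were computed from the deposited coordinates in bp. Chromosome Y and unplaced sequences were left out. Regions were peaks of all libraries merged where they shared 1 bp or more. Equal lists kept the 27296 best peaks by score, with ties broken by position in the file.

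Values per library were compared by exact permutation tests over the 10 splits of 3 against 2 libraries. Lengths of shared regions, shares of covered length in 1 Mb windows (log2 of covered bp in the window per Mb covered in all, plus 20) and shares of peaks per chromosome were fitted with limma 3.58.1 in R 4.3.3. Other values came from pandas 2.3.3 and numpy 2.4.6 in Python 3.11.15. Interval functions were tested on simulated data and gave exact answers in 20 of 20 runs, and limma fits were tested on simulated data with 200 changed features. Groups came from the sample titles. Alternatives were equal lists, a score of at least 50, other distances, scalings and window sizes, replicate numbers as pairs, and leaving out each library. Joining at 100 bp with a smallest width of 250 bp, joining after the cut, and spans were added after the values were seen.

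Regions were named by rule: the 5 in all libraries with the largest mean covered length, the 5 in each direction with the smallest p for length (3 for windows), and for each splice form the 3 with the largest covered length in the library where it was smallest, passing over chromosome 8. The members and lists were chosen with earlier results of these data known. Planned gene names, start sites and marker genes were not run, because no annotation of hg19 was used here.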

Additional observations from a re-analysis of the deposited data

Results flagged for a closer look

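Every H3K4me3 library had peaks on sequences outside chromosomes 1 to 22, X and Y, which none of the comparisons used. There were 560, 275 and 188 such peaks in WT1 −KTS replicates 1, 2 and 3, against 203 and 278 in WT1 +KTS replicates 1 and 2.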

How the results depend on the processing

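Of the comparisons per library, the higher median width, the higher share over 1 kb, the lower share with a neighbour and the fewer peaks per cluster in +KTS kept their direction whichever library was left out (neighbour share −37.1 to −30.1 points, covered length 0.111 to 0.305 on the log10 scale). Over those 5 settings the log2 difference in median width was 0.37 to 1.17, that in share over 1 kb 7.24 to 24.3 points, and that in peaks per cluster −0.917 to −0.603, which fell to −0.231 with a common gap and width. The log10 difference in number of peaks, −0.0144, ranged from −0.158 to 0.130 and turned to 0.166 with a common gap and width. That in median width turned to −0.24 with peaks joined within 1 kb. The difference in likeness within against between groups, −0.0451, ranged from −0.145 to 0.0417 and was 0.00289 with a Jaccard index of regions. Exact p-values could not pass 0.05 in any setting and say nothing of stability.

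Regions that all −KTS libraries and no +KTS library had numbered 118 with equal lists and 105 with peaks joined within 1 kb, and 239 to 1637 when one library was left out. Those in every +KTS and no −KTS library numbered 1544 to 25623 when a library was left out, the highest without +KTS replicate 1. They numbered 2004 with equal lists and 1147 with peaks joined within 1 kb. At a score of at least 50 there were 279 of −KTS and 1006 of +KTS. Replicate numbers are shared by the groups, but the labels tie them to no common culture or day, so they were not taken as pairs. Deviations of covered length at shared regions correlated at 0.390 for number 1 and 0.244 for number 2. For −KTS replicate 3 with +KTS replicate 2 it was 0.395. Deviations of the 2 +KTS libraries are mirror images, so each −KTS library must correlate positively with one of them. These values therefore cannot decide whether the numbers are pairs. With replicate block, 182 of 11686 shared regions (1.56%) were called longer and 37 (0.317%) shorter in +KTS by limma, from a single residual degree of freedom. With numbers 1 and 2 alone, 1637 regions were in every −KTS and no +KTS library and 2187 the reverse. The other block values kept their direction. Shares of peaks gave 1 called window, and leaving out −KTS replicate 3 gave 2 called chromosomes, where other settings gave 0. Numbers of peaks cannot be compared with equal lists. Unknown read depth limits every count of peaks.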
